A study of Homo sapiens with 4 samples.

Results

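The genes described here are the numbered ZNF zinc finger genes, taken as every gene of the deposited table whose name is ZNF followed by a number and at most 1 further letter. 345 of the 10147 listed genes carried such a name, and all were kept although they exceed the 300 at which a shorter list was considered. RNA synthesis was measured by transient transcriptome sequencing (TT-seq), in which a 5 min pulse of 500 µM 4-thiouridine labels new RNA before it is isolated, fragmented and sequenced. All libraries came from K562, a human erythroleukaemia line, and both groups carried the same genome edit, an N-terminal dTAG on IWS1, a factor that travels with elongating RNA polymerase II. The control group received DMSO for 1 h. The dIWS1 group received 500 nM dTAG7 for 1 h, a compound that brings the tagged protein to a ubiquitin ligase for degradation. Both groups came from the same edited cells, so no cells without the tag were compared.

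Zinc finger proteins of the C2H2 kind read DNA through tandem fingers, each a short loop held around a zinc ion by paired cysteines and histidines. Many of them also carry a KRAB box near the N terminus, which binds TRIM28 and through it the histone methyltransferase SETDB1, heterochromatin proteins and DNA methylation. KRAB zinc finger genes arose by repeated duplication, lie in large part in tandem clusters on chromosome 19, and are best known for silencing retroelements and for guarding imprints. Other ZNF genes without that box encode promoter-binding activators, corepressors, and proteins that act on RNA, ribosomes or SUMO.

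The GEO labels named 2 biological replicates in each group. The deposited table held 1 mean over 4 library columns for each gene, and whole reads could be recovered for 3 different columns only, since both control columns were equal. The control was therefore counted as 1 sample, and it has no measured spread. The dIWS1 columns are called column 1 and column 2, as nothing ties them to a replicate number. Reads in genes came to 29832118 in the control, 20684301 in column 1 and 20886697 in column 2, and spike-in size factors ran from 0.919 to 1.01. Every test below is limma voom on these reads, with the lone control assumed to vary as the dIWS1 columns do, and a gene was called at a Benjamini-Hochberg adjusted p under 0.05 over the 10007 genes with at least 10 reads. All 10 erythroid or K562 markers were listed, with 129 to 16164 control reads, and none of 8 markers of B cells, T cells, liver or epithelium was. Genes overlapping another were also left out of the list, so absence alone does not show that a gene was silent. IWS1 itself had 3649, 2350 and 2640 normalised reads in the control, column 1 and column 2, but since the protein and not the gene was removed, this does not check the labels.

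The coding sequences bear out the name for most members. Of the 345 genes, 338 were protein coding in RefSeq and 7 were transcribed pseudogenes, and a GENCODE coding sequence was read for 337, all but the pseudogenes and ZNF720. A KRAB profile matched 219 of these (65.0%), and 118 had no match. The number of C2H2 fingers by pattern had a median of 11 and reached 36, in ZNF142. Only ZNF330, ZNF839 and ZNF862 held no finger by this pattern, and ZNF862 nevertheless matched the KRAB profile. The name KRAB-type therefore fits that share of the members and not the whole set. ZNF429 (KRAB match, 15 fingers) and ZNF628 (no KRAB match, 16 fingers) both fell strongly after depletion and show the difference in build. The first sequence below is the KRAB stretch of ZNF429, in coding exon 2 of 4 (GRCh38 chr19:21529667-21529750, + strand), with the codons of a glutamate-tryptophan pair of the box in capitals. The other sequences are 1 finger of ZNF429 (coding exon 4 of 4, chr19:21536576-21536638, + strand) and 1 of ZNF628 (coding exon 2 of 2, chr19:55481305-55481367, + strand), with the codons of the zinc-binding cysteines and histidines in capitals.
ZNF429 KRAB box: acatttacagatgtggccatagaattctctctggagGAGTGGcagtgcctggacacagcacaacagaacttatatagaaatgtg
ZNF429 finger: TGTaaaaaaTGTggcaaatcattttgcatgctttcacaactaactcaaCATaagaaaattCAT
ZNF628 finger: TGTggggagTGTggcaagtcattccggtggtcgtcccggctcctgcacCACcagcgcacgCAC
Each finger is the first match to a pattern that fixes the spacing of the 4 capital codons, so that likeness was set beforehand. The bases between these codons differ.

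Chromosome 19 held 156 members (45.2%), against 5.68% of the other listed genes. It carried 128 of the 219 KRAB members and 24 of the 118 without a match. Chromosomes 7 and 16 followed with 26 members each. Genes spanned 0.966 to 468 kb, with a median of 23.4 kb, close to the 27.7 kb of all tested genes. They were transcribed at a modest level per length: the median member had 28.8 control reads per kb of span, against 41.6 over all tested genes. Within the family, KRAB members had a median of 23.5 and members without a match 43.1 control reads per kb. Control reads per gene ran from 35 to 37904 with a median of 650, and 27 members had fewer than 100. The median standard error of a log2 fold change was 0.23 for members under 100 control reads and 0.14 in each of the classes of 100 to 1000, 1000 to 10000 and over 10000, so that only the shallowest class was less precise. The sequence bears on uniqueness too, because only uniquely aligned reads were counted. The median member shared 5.03% of the 31-base words of its transcripts with another gene, and 7 members shared over 50%, so their read counts are less certain.

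RNA synthesis of the numbered ZNF genes was lower after IWS1 depletion, by a median log2 fold change of -0.35 (quartiles -0.51 and -0.23), and by somewhat less than the -0.42 over all genes (quartiles -0.60 and -0.26). The median over members was -0.40 in column 1 and -0.29 in column 2, and over all genes -0.47 and -0.37, so the columns differed by more than the members differed from the rest. The members stood above all genes in each column, but both columns are set against the same control, so this is not independent support. All 345 members were tested. Of these, 194 (56.2%) were called lower and none higher, while 151 did not pass the test. At an unadjusted p under 0.05, 0 members were higher, and limma-trend also called none higher. Over all genes 65.0% were called lower and 0.130% higher, so the share of members called was not above the background. In bulk RNA, fewer cells making a transcript and less of it per cell cannot be told apart.

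Before any test, 320 members had both dIWS1 columns below the control after spike-in scaling, which is 92.8% of them and matches the 92.7% over all genes. For 20 members the columns lay on either side of the control, and for 5 both lay above it. None of these 25 was called. The difference between column 1 and column 2 had a standard deviation of 0.16 on the log2 scale over members. The fold change was larger than that gene's own difference between columns in 301 of the 345. The same held for 8651 of the 10007 genes tested, so members did not stand out by this count. Both ratios use the same control column, so their likeness across genes was not taken as a result.

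**Figure D1:**
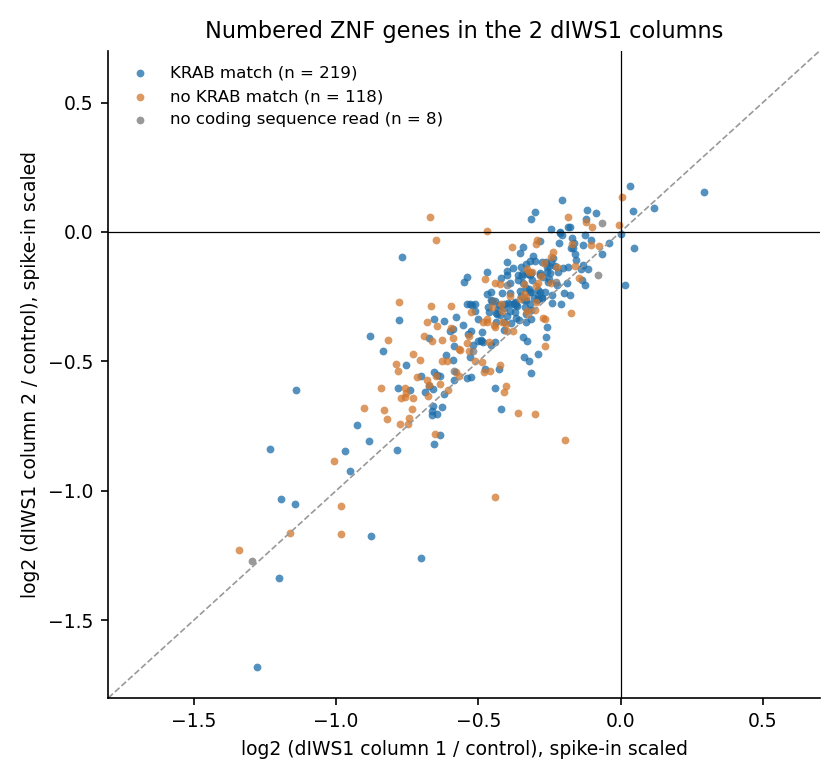
Log2 ratio of each numbered ZNF gene in dIWS1 column 1 (x axis) and dIWS1 column 2 (y axis), both over the shared control column after spike-in scaling, with points coloured by match to the KRAB profile and a dashed line of equality. Most points lie below 0 on both axes (320 of 345), and more lie above the line than below it, the median difference of column 1 from column 2 being -0.10.

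This direction rests on the spike-in scaling. When the fold changes were set relative to the median gene, the median member stood at 0.074, with 13 members (3.77%) called lower and 9 (2.61%) called higher, against backgrounds of 4.86% and 2.94%. Scaling to the total reads in genes moved the median of all genes to 0.018 and that of the members to 0.091, with 26 members (7.54%) called lower and 71 (20.6%) higher, against backgrounds of 13.5% and 18.3%.

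The 10 lowest members with at least 100 control reads had log2 fold changes from -1.47 to -0.95, and each was also called lower relative to the median gene. ZNF311 (chr6:28994788-29005612 in GRCh38, KRAB match, 14 fingers) was the lowest, with 113 normalised reads in the control, 46.3 in column 1 and 34.8 in column 2. The control exceeded both dIWS1 values more than 2 times, and the log2 fold change was -1.47 ± 0.23 (SE, adjusted p = 3.94e-09). ZNF510 (chr9:96754553-96778087, KRAB match, 9 fingers) gave 336 normalised reads in the control and 146 and 133 in the dIWS1 columns. Its log2 fold change was -1.27 ± 0.15 (SE, adjusted p = 1.42e-14). ZNF833P, a pseudogene at chr19:11673998-11686569, had 127, 51.3 and 52.2 normalised reads. Since 94.5% of the 31-base words of its transcripts also occur in transcripts of another gene, its read count is less certain.

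ZNF839 (chr14:102317506-102342367), which held no finger by the pattern, had 1207 normalised reads in the control and 540 in each dIWS1 column, so both columns fell to the same level. Its log2 fold change was -1.16 ± 0.14 (SE, adjusted p = 2.04e-15). ZNF429 (chr19:21505602-21540668), whose KRAB and finger sequences are given above, had 1586 normalised reads in the control, 694 in column 1 and 775 in column 2, a log2 fold change of -1.11 ± 0.14 (SE, adjusted p = 1.48e-13). ZNF717 (chr3:75694701-75785549, KRAB match, 18 fingers) had 1515, 686 and 731 normalised reads, again with both dIWS1 columns close to each other and far below the control. ZNF624 on chromosome 17 had 296 normalised reads in the control, 126 in column 1 and 165 in column 2, a wider gap between columns that still left both below the control. ZNF862 on chromosome 7 and ZNF628 on chromosome 19 had log2 fold changes of -1.02 ± 0.18 and -1.02 ± 0.19 (SE). ZNF609 (chr15:64459578-64686068), a large gene with 1 finger by the pattern whose protein is known to work with the cohesin loader and the Integrator complex, had the most reads of all members. Its normalised reads were 37544 in the control, 18661 in column 1 and 20317 in column 2. The fall of -0.95 ± 0.14 (SE, adjusted p = 3.16e-10) on the log2 scale was thus measured at a depth where counting error is small.

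At the other end, no member passed the test for a rise. The 5 highest log2 fold changes among members with at least 100 control reads were those of ZNF552, ZNF550, ZNF232, ZNF257 and ZNF821, between 0.0096 and 0.11, with adjusted p from 0.505 to 0.951. ZNF550 (chr19:57541838-57561395, KRAB match, 8 fingers) had 275 normalised reads in the control, 282 in column 1 and 311 in column 2. ZNF257 (chr19:22052484-22091480, KRAB match, 11 fingers) had 289, 298 and 306 normalised reads, so both dIWS1 columns lay slightly above the control. ZNF821 (chr16:71859680-71895256, 2 fingers) had 329, 327 and 335. Relative to the median gene, ZNF552, ZNF550, ZNF257 and ZNF821 were called higher, by 0.43 to 0.53 (adjusted p from 0.00667 to 0.0269), and ZNF232 was not (0.49, adjusted p = 0.0554). ZNF10, chosen after its values were seen, also held its level at 863 normalised reads in the control, 863 in column 1 and 858 in column 2. Its KRAB domain is the one commonly fused to inactive Cas9 to silence genes.

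**Figure D2:**
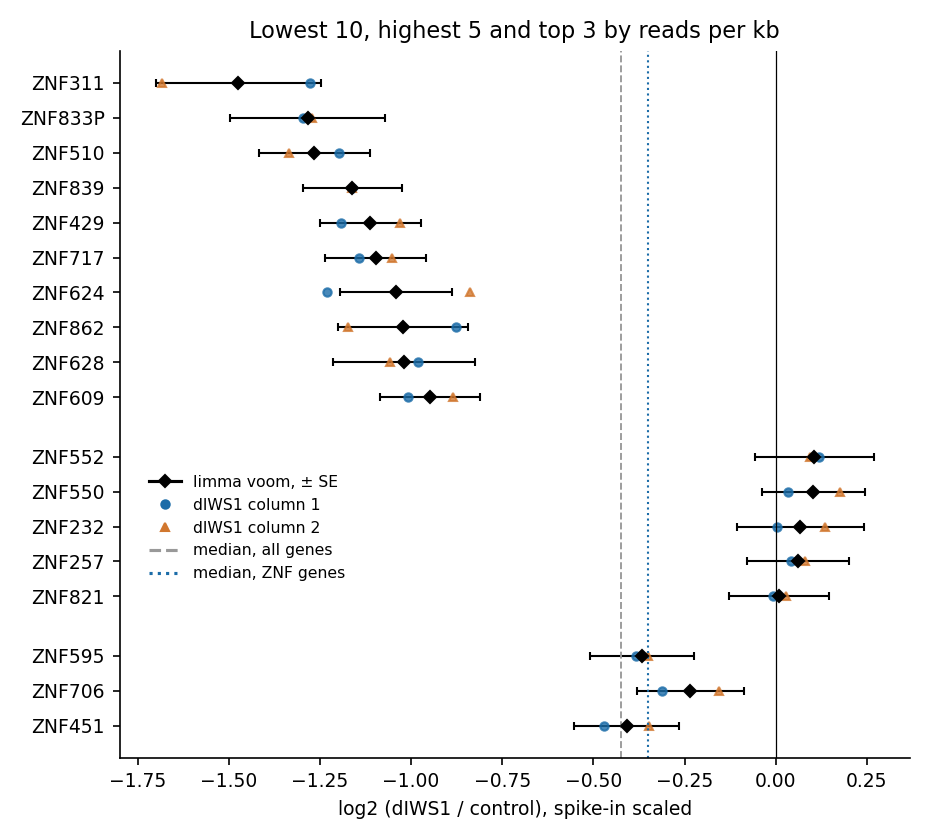
Log2 ratio of dIWS1 over control after spike-in scaling for the 10 lowest, the 5 highest and the 3 most densely read members. Diamonds with bars give the limma voom estimate ± SE, circles and triangles the dIWS1 columns, the dashed line the median of all genes (-0.42) and the dotted line that of the ZNF genes (-0.35). The dIWS1 columns of the lowest group lie between -1.68 and -0.84, and those of the highest group between -0.0071 and 0.18.

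The members with the most control reads per kb had log2 fold changes near the median of all genes or above it. ZNF595 (chr4:53321-88208, KRAB match, 17 fingers), near the end of the short arm of chromosome 4, had 590 control reads per kb. Its normalised reads were 20391 in the control, 15630 in column 1 and 15996 in column 2, and it fell by 0.37 on the log2 scale (SE 0.14, adjusted p = 0.0181), a call that limma-trend did not make (adjusted p = 0.0708). ZNF451, a SUMO ligase on chromosome 6, had 218 control reads per kb and a log2 fold change of -0.41 ± 0.14 (SE, adjusted p = 0.00947). ZNF706, a small protein with 1 finger encoded on chromosome 8, had 247 control reads per kb and did not pass the test, at -0.23 ± 0.15 (SE, adjusted p = 0.143).

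Genes of KRAB proteins with a known role at retroelements or imprints had fold changes near the median of all members. Of the 8 named for this, 5 were listed, with a median log2 fold change of -0.36. Of these, 3 (60%, against 65.0% of all genes) were called lower and none higher. ZNF445, which protects imprinted regions, had 2921, 2198 and 2296 normalised reads in the control, column 1 and column 2, a log2 fold change of -0.38 ± 0.15 (SE, adjusted p = 0.0205, and 0.0595 with limma-trend). ZNF649 and ZNF765, which bind LINE retroelements, were called lower at -0.47 and -0.36 (adjusted p = 0.0043 and 0.0131). ZNF91, a repressor of SVA retroelements with 31 fingers, had 4490, 3675 and 3796 normalised reads. Both dIWS1 columns lay below the control, but the log2 fold change of -0.27 ± 0.15 (SE) did not pass the test (adjusted p = 0.108). ZNF274, which binds the 3′ ends of ZNF genes themselves and recruits SETDB1 there, stood at -0.22 ± 0.14 (SE, adjusted p = 0.145).

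DNA-binding regulators without a silencing KRAB role had a lower median, -0.51 over 13 listed genes of 15 named, and 10 of them (76.9%, against 65.0% of all genes) were called lower. Relative to the median gene, 0 of the 13 were called lower and 1, ZNF281, higher. ZNF335, a subunit of a histone methyltransferase complex, had 545, 306 and 338 normalised reads, a log2 fold change of -0.76 ± 0.13 (SE, adjusted p = 2.08e-07). ZNF687, a partner of the chromatin reader ZMYND8, fell by 0.72 (SE 0.13, adjusted p = 1.47e-06), while ZNF592 of the same complex stood at -0.32 ± 0.15 (SE) and narrowly missed the threshold (adjusted p = 0.0545). ZNF521, a haematopoietic corepressor spanning 290 kb, had 23482, 14692 and 15129 normalised reads and fell by 0.66 on the log2 scale (SE 0.14, adjusted p = 2.64e-05). ZNF148, ZNF263, ZNF384, ZNF410, ZNF143, ZNF644 and ZNF24 were also called lower, at -0.64 to -0.33. ZNF263 matched the KRAB profile, and ZNF24 (-0.48 in column 1 and -0.18 in column 2) lost its call with limma-trend (adjusted p = 0.089). ZNF384 stood at -0.68 in column 1 and -0.35 in column 2. ZNF143 is an activator that binds many promoters, ZNF410 is known for driving CHD4, and ZNF644 works with the histone methyltransferases EHMT1 and EHMT2. ZNF281 had 703, 655 and 714 normalised reads, with the columns on either side of the control and a log2 fold change of -0.040 ± 0.13 (SE, adjusted p = 0.781). Relative to the median gene it stood at 0.38 (adjusted p = 0.0434). ZNF217, an oncogenic corepressor, was at -0.17 ± 0.15 (SE, adjusted p = 0.298).

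Of 8 ZNF genes named for a role with RNA, ribosomes, SUMO or the spindle, 7 were listed, with a median log2 fold change of -0.41. Of the 7, 4 (57.1%, against 65.0% of all genes) were called lower and none higher. ZNF598, the ubiquitin ligase that marks collided ribosomes, had 998, 577 and 700 normalised reads, a log2 fold change of -0.65 ± 0.13 (SE, adjusted p = 9.35e-06). ZNF638, a silencer of unintegrated retroviral DNA, and ZNF346, which binds double-stranded RNA, were at -0.51 and -0.50 (adjusted p = 0.00154 and 0.00221). ZNF326, a subunit of the DBIRD complex that links polymerase elongation to splicing, had 4893, 4301 and 5090 normalised reads, with the columns on either side of the control and a log2 fold change of -0.065 ± 0.15 (SE, adjusted p = 0.699). ZNF622, a factor of the large ribosomal subunit, and ZNF830, a splicing factor, were at -0.11 and -0.16 (adjusted p = 0.49 and 0.419).

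KRAB members had less negative fold changes than members without a KRAB match. The median log2 fold change was -0.32 over 219 KRAB members, with 116 (53.0%) called lower. It was -0.47 over 118 members without a match, with 74 (62.7%) called lower, near the 65.0% of all genes. The difference of the medians was 0.14, and it was 0.11 in column 1 and 0.11 in column 2. It is a description, since genes are not replicates and both columns share the control. Base composition moved with it: the median G+C content of the gene span was 43.1% in KRAB members and 46.1% in the others. Among all genes outside the family the median log2 fold change went from -0.32 for spans under 40% G+C to -0.54 for spans of 50% and over. Within classes of G+C content the medians of KRAB members exceeded those without a match by 0.088 under 40%, by 0.032 from 40 to 45% and by 0.13 from 45 to 50%, with a difference of -0.019 at 50% and over. On chromosome 19 the medians were -0.30 for 128 KRAB members (47.7% called lower) and -0.48 for 24 members without a match (62.5%). On other chromosomes they were -0.35 for 91 KRAB members (60.4%) and -0.43 for 94 without a match (62.8%). The parts of base composition and of chromosome in the difference were not tested.

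**Figure D3:**
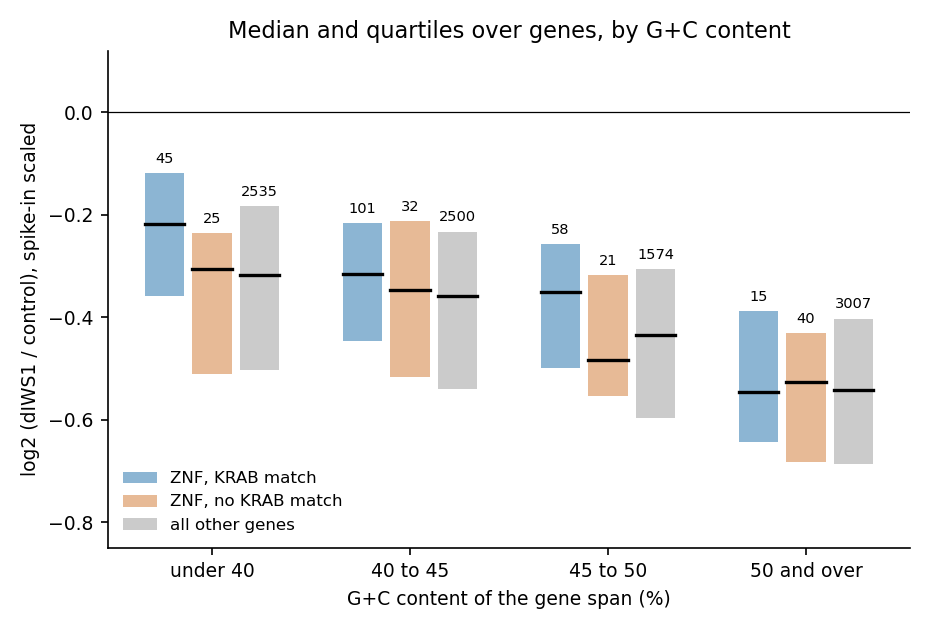
Median (black line) and quartiles (bar) of the log2 ratio of dIWS1 over control after spike-in scaling, over genes in 4 classes of G+C content of the gene span, with the number of genes above each bar. In each of the 3 sets the median is lowest in the class of 50% and over, at -0.55 for KRAB members, -0.53 for members without a match and -0.54 for all other genes.

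Gene length ordered the members less clearly. Members spanning up to 10 kb had a median log2 fold change of -0.47, those of 10 to 30 kb -0.33, those of 30 to 60 kb -0.32 and those over 60 kb -0.39. Median G+C content of the members also differed between these classes, at 52.4%, 44.3%, 42.1% and 40.6%, and its part was not tested. The other genes of the same classes had medians of -0.48, -0.39, -0.35 and -0.48, so the members were above them in every class, by least in the shortest. Members without a KRAB match were lower than KRAB members in the 3 longer classes, with -0.54 against -0.34 over 60 kb, and not in the shortest, where the medians were -0.46 and -0.50. The number of fingers went with little: the median was -0.41 for up to 4 fingers, -0.39 for 5 to 9, -0.32 for 10 to 14 and -0.36 for 15 or more. By level, all 9 members with at least 10000 control reads were called lower, with a median of -0.51, as were 84.8% of the 671 other genes at that depth.

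The members on chromosome 19 had less negative fold changes than the other genes of that chromosome. The median log2 fold change was -0.32 over the 156 members there, with 77 called lower (49.4%), and -0.54 over 553 other tested genes of that chromosome, with 460 called lower (83.2%). Members on other chromosomes stood between, at -0.38 with 117 of 189 (61.9%, against 65.0% of all genes) called lower. The other genes of chromosome 19 are also shorter and richer in G+C, with median spans of 13.0 kb and 55.0% G+C against 23.1 kb and 43.8% for the members. At 50% G+C and over, the medians were -0.53 for 19 members and -0.55 for 481 other genes of the chromosome. Below 45% they were -0.26 for 97 members and -0.32 for 20 other genes, and from 45 to 50% they were -0.36 for 40 members and -0.46 for 52 other genes.

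**Figure D4:**
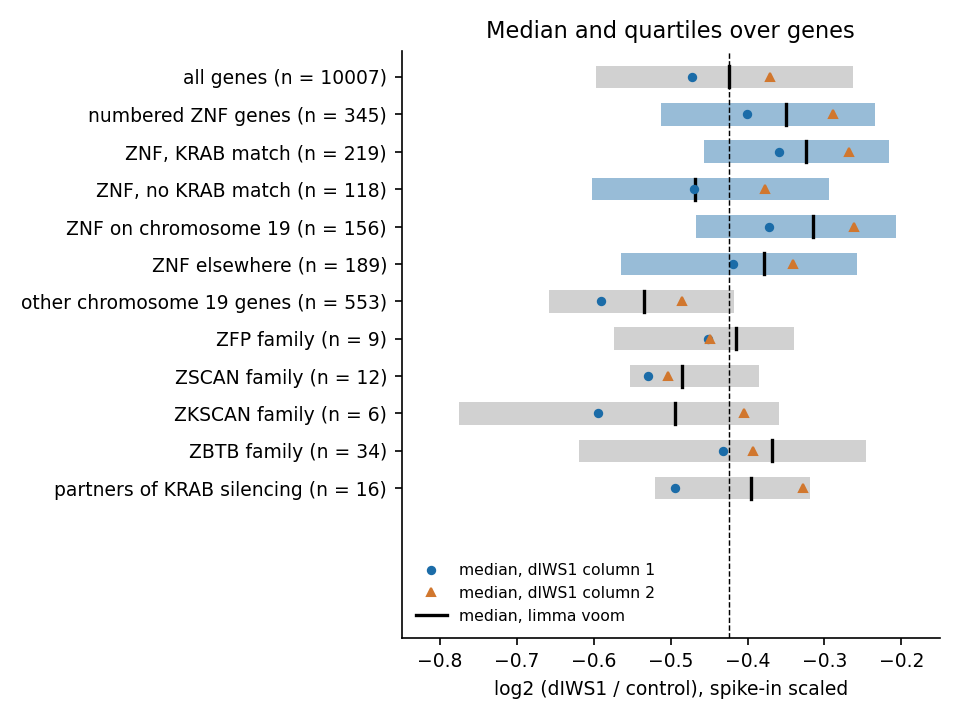
Median (black line) and quartiles (bar) over genes of the log2 ratio of dIWS1 over control after spike-in scaling, with the median in each dIWS1 column as a circle or triangle, and the dashed line at the median of all genes (-0.42). ZNF genes on chromosome 19 (-0.32) and the other genes of that chromosome (-0.54) lie on opposite sides of it.

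Along chromosome 19, 6 uninterrupted runs held at least 6 members each with no other listed gene between them, 91 members in all, of which 84 matched the KRAB profile. The median over members in runs was -0.28, with 39 called lower (42.9%, against 65.0% of all genes). It was -0.39 over the 65 other members of the chromosome, with 38 called lower (58.5%). The run of 19 members from ZNF101 to ZNF724P (19668153 to 23250394) had a median of -0.20, with 6 called lower (31.6%). It held both ZNF429, at -1.11, and ZNF257, at 0.061, with 512 kb between them. The run of 10 members from ZNF283 to ZNF180 (43827321 to 44500522) also had a median of -0.20, with 2 called lower (20%). Median G+C content of the spans was 39.2% and 41.0% in these runs. The runs of 23 members from ZNF175 to ZNF813 and of 25 members from ZNF460 to ZNF8 had medians of -0.36 and -0.34. In them 13 (56.5%) and 11 (44%) were called lower, and median G+C content was 43.5% and 46.5%. The runs of 8 members from ZNF788 to ZNF791 and of 6 from ZNF542P to ZNF805 had medians of -0.34 and -0.27. In them 5 (62.5%) and 2 (33.3%) were called lower, and median G+C content was 44.3% and 40.8%. The part of base composition in these medians was not tested. Fold changes within the run from ZNF101 to ZNF724P thus ran from -1.11 to 0.061, against -1.47 to 0.23 over the whole family.

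**Figure D5:**
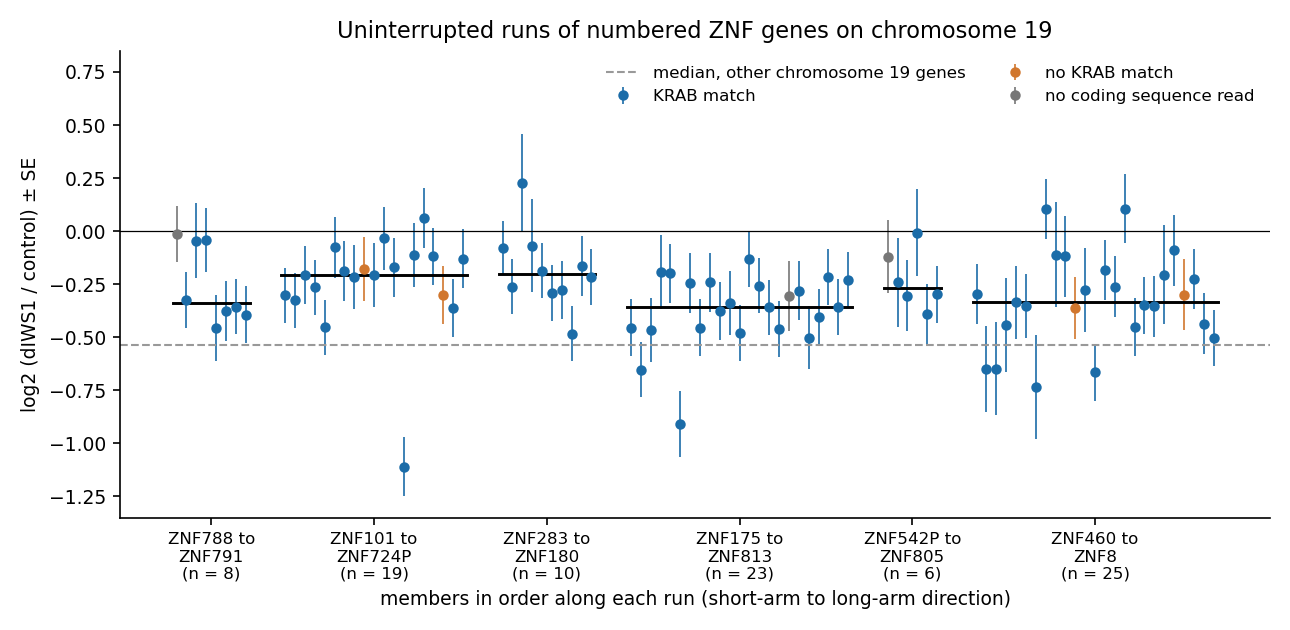
Log2 ratio of dIWS1 over control ± SE for the 91 members in the 6 runs on chromosome 19, in their order along each run, with the run's median as a black line and the median of the other genes of the chromosome (-0.54) dashed. All 6 run medians lie above the dashed line, and ZNF429 (-1.11) stands far below its neighbours.

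The partners through which KRAB proteins silence were listed for 16 of 25 named genes, of which 12 (75.0%, against 65.0% of all genes) were called lower and none higher, with a median log2 fold change of -0.40. TRIM28 itself was among the 9 not listed, so it could not be analysed here. SETDB1 had 2249, 1446 and 1673 normalised reads in the control, column 1 and column 2, a log2 fold change of -0.53 ± 0.15 (SE, adjusted p = 0.000898), and its cofactor ATF7IP was at -0.40. Within the HUSH complex, which spreads silent chromatin, FAM208A (TASOR) had 4395, 2102 and 2063 normalised reads and fell by 1.08 on the log2 scale (SE 0.15, adjusted p = 4.9e-11), while MPHOSPH8 and PPHLN1 fell by 0.33 and 0.37. FAM208A alone of the 16 was also called lower relative to the median gene. MORC2, an ATPase that acts with HUSH, was at -0.83 ± 0.15 (SE). CBX3, HDAC1, HDAC2 and DNMT3B did not pass the test, at -0.28, -0.29, -0.18 and -0.20.

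Related families behaved within the same range. The median log2 fold change was -0.42 over 9 numbered ZFP genes (6 called lower, 66.7%) and -0.49 over 12 ZSCAN genes (10 called lower, 83.3%). It was -0.49 over 6 ZKSCAN genes (4 called lower, 66.7%) and -0.37 over 34 ZBTB genes (19 called lower, 55.9%). None was called higher, and over all genes 65.0% were called lower. ZSCAN proteins pair a SCAN domain with fingers, and ZBTB proteins a BTB domain. ZNF genes with a hyphen in their name, all antisense transcripts, were not members. Their median was -0.34 over 8, with 3 (37.5%) called lower, and the reads had been counted by strand.

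Promoters of the family were searched for letters read by known factors. RefSeq promoter windows (GRCh38.p14, 250 bases before to 50 after the start) were at hand for 299 members. The letters CCGGAAG, read by ETS factors, were found on either strand in 45.2% of them, in 50.5% of 196 KRAB members and in 34.3% of 102 members without a match, against 21.1% of 7722 other listed genes and 10.7% of all 27305 promoters. CCAAT, read by NF-Y, was in 49.2% of the members against 37.3% of other listed genes and 35.7% of all promoters. GGGCGG, read by SP1, was in 64.9%, 72.0% and 44.6%, and the TATA box letters TATAAA were in 4.01%, 5.37% and 11.95%. GCGCATGC (NRF1), AAGATGG (YY1), TGACGTCA (CRE) and ACTACAA (ZNF143) were in 5.69%, 7.36%, 4.68% and 7.02% of member promoters, against 6.13%, 8.65%, 3.55% and 4.22% of other listed genes and 3.27%, 6.06%, 1.98% and 2.95% of all promoters. No motif searched contains another, and both strands were searched. The change after depletion did not follow the ETS letters: the median log2 fold change was -0.35 for 135 members with them and -0.35 for 164 without.

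The promoters of ZNF311 and ZNF510, the lowest members with at least 100 control reads and an entry, of ZNF550, 1 of the 5 highest, and of ZNF595, the most densely read, are printed here to set the ends of the range side by side, with motif matches on either strand in capitals. They lie at chr6:29005563-29005862 (- strand), chr9:96778038-96778337 (- strand), chr19:57559814-57560113 (- strand) and chr4:53071-53370 (+ strand).
ZNF311: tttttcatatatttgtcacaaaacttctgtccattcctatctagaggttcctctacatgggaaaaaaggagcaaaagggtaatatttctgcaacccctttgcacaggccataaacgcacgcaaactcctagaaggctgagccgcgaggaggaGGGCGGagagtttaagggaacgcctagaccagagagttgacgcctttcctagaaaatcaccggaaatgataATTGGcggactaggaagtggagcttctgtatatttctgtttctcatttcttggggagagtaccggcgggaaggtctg
ZNF510: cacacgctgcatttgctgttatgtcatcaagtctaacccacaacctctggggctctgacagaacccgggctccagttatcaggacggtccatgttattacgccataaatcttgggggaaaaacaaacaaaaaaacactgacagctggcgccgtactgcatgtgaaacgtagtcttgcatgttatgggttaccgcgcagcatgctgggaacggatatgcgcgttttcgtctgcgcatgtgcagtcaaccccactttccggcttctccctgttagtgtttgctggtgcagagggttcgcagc
ZNF550: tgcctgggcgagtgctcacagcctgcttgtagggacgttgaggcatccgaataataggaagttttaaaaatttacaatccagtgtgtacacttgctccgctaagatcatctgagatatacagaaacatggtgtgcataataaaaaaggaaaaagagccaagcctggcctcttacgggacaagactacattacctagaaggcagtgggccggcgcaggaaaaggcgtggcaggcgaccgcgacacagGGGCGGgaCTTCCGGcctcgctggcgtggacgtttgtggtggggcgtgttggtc
ZNF595: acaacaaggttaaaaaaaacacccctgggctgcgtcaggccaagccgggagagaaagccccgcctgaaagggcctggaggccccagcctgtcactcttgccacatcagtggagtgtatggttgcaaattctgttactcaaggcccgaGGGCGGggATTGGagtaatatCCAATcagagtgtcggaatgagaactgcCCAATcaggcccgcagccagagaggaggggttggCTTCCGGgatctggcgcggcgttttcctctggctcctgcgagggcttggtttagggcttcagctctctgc
ZNF595 held 5 matches, 3 of them CCAAT and 1 each of the ETS and SP1 letters. ZNF550 held an SP1 and an ETS match side by side, ZNF311 an SP1 and a CCAAT match, and ZNF510 none of the letters searched. A match or its absence describes these letters only.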

How the data were processed

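The authors sequenced 4sU-labelled RNA from 2 control and 2 dIWS1 samples, aligned reads with STAR 2.6.0 to GRCh38 with spike-in sequences, kept unique alignments, counted reads per RefSeq gene by strand, removed overlapping genes and applied a minimum of reads per length. Their deposited table holds a signal, the mean of counts divided by spike-in size factors over all library columns, beside the authors' DESeq2 comparison (a log2 fold change, its error, statistic and p-values). The deposited log2 column was used only to split each mean into whole reads and to assign columns to groups (dIWS1 over control), and no value of the comparison is given. All 10136 means above 0 split in 1 way only into multiples of 3 steps, and 0 of 600 shifted means did. 1 step entered each mean 2 times, as 2 equal control columns. The labels do not say which control sample it is. The recovery was tested on simulated data.

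Reads were tested with limma 3.58.1 (voom, R 4.3.3) on the spike-in size factors, with genes of at least 10 reads and treatment as the only term. With 1 residual degree of freedom, p-values rest on the spread shared across genes, and the dIWS1 columns may differ only technically. Log2 ratios per column add 0.5 reads. Intervals of depth cover counting error only. KRAB boxes were found with a profile (pyhmmer 0.12.3, E under 1e-05) and fingers with a pattern, both on translated GENCODE release 44 coding sequences in place of RefSeq proteins. A divergent box can be missed. Members matched RefSeq by symbol (342) or synonym (3). Coordinates are RefSeq gene spans. Named were the 10 lowest called members and the 5 highest with at least 100 control reads, the 3 with the most control reads per kb, and fixed role lists. ZNF10, the ends of runs and the extremes of finger number were named after their values were seen. The members and lists were chosen with earlier results of these data known. Alternatives were total-read scaling, recentring, read filters, limma-trend, the control entered 2 times, thresholds and single columns. After seeing the data, KRAB members in place of all members and members without shared sequence were added.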

Additional observations from a re-analysis of the deposited data

How the results depend on the processing

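The direction of the members depends on the scaling. With total reads in genes, 26 members were lower and 71 higher (1350 and 1836 of all genes), with medians of 0.091 over members and 0.018 over all genes. Recentred on the median gene, 13 members were lower and 9 higher (486 and 294 of all genes), with medians of 0.074 and 0. A minimum change of 0.5 left 96 members and 3767 of all genes lower, and 6 genes higher. An adjusted p under 0.01 left 129 members and 4884 of all genes lower, and 6 genes higher. With limma-trend 8 genes were higher, and with the control entered 2 times 55. KRAB members in place of all members gave 116 lower, by construction a smaller set. With column 1 or column 2 alone the median was -0.40 or -0.29 over members and -0.47 or -0.37 over all genes. These have no test, since 1 sample against 1 leaves no residual degrees of freedom. The other alternatives kept each count within 1.5 times and each median within the spread between columns. No paired analysis was possible because the recovered columns carry no replicate numbers. Of 42 named members, 14 changed sign in each rescaling. Recentred, they were ZNF595 (0.057), ZNF706 (0.19), ZNF451 (0.016), ZNF91 (0.16), ZNF445 (0.046), ZNF274 (0.20), ZNF765 (0.068), ZNF24 (0.10), ZNF281 (0.38), ZNF217 (0.25), ZNF592 (0.11), ZNF622 (0.32), ZNF326 (0.36) and ZNF830 (0.27). By total reads the same genes in that order stood at 0.075, 0.21, 0.034, 0.18, 0.063, 0.22, 0.088, 0.11, 0.40, 0.27, 0.12, 0.33, 0.38 and 0.29. In single columns, with no test, ZNF821 ran from -0.0071 to 0.027, ZNF281 from -0.10 to 0.021 and ZNF326 from -0.19 to 0.057. ZNF24 ran from -0.48 to -0.18, ZNF384 from -0.68 to -0.35, ZNF598 from -0.79 to -0.51 and ZNF624 from -1.23 to -0.84. ZNF595 and ZNF445 lost their call with limma-trend (adjusted p = 0.0708 and 0.0595), and ZNF24 with limma-trend and with the control entered 2 times (adjusted p = 0.089 and 0.0636). With the control entered 2 times, ZNF706, ZNF91, ZNF274 and ZNF592 gained a call (adjusted p = 0.038, 0.00624, 0.0247 and 0.0146). Recentred, 13 members lost their call with no change of sign: ZNF649, ZNF143, ZNF410, ZNF148, ZNF263, ZNF384, ZNF644, ZNF687, ZNF335, ZNF521, ZNF598, ZNF638 and ZNF346. ZNF281 was called higher when recentred and by total reads (adjusted p = 0.0434 and 0.0023). By total reads ZNF706, ZNF91, ZNF274, ZNF217, ZNF622 and ZNF326 were also called higher. So were ZNF552, ZNF550, ZNF232, ZNF257 and ZNF821 (adjusted p = 0.0155, 0.00391, 0.0319, 0.0065 and 0.00936). Of the 13 members above that lost their call when recentred, 10 also lost it by total reads, all but ZNF148, ZNF335 and ZNF521.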
